A study of Mus musculus with 6 samples.

Results

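The proteasome genes of the mouse small intestine were taken from an RNA-seq table of intestinal ischemia/reperfusion (I/R). Members were every gene whose symbol begins with Psma, Psmb, Psmc, Psmd, Psme, Psmf or Psmg followed by a digit, together with Pomp. This gave 49 genes of the 12000 genes tested, which were those that averaged 0.5 FPKM or more across the 6 libraries, and all 49 were present both before and after this filter. FPKM divides the fragments of a transcript by its length and by the library's mapped total, so levels are per length and can be set side by side between genes. The FPKM of a gene is the sum over its listed transcripts. The annotation holds 55 symbols that fit the rule, of which 4 are pseudogenes and 2, Psma8 and Psmb11, are protein-coding genes not analysed here. One member, Psmc3ip, matches by its name alone, since its product is a cofactor of meiotic recombination, which leaves 48 genes of the proteasome, its chaperones and its regulators.

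The study compared 3 I/R libraries, replicates 6, 7 and 9, with 3 sham libraries, replicates 1, 3 and 5. All were total RNA of small intestine from C57BL/6 mice at 8 weeks of age. In the I/R group the superior mesenteric artery, which feeds the small bowel, was closed and then reopened, and sham mice had the operation without closure of the artery. The labels do not say that each library is a separate mouse, nor which stretch of bowel was taken, so the p-values here speak only of library-to-library spread. Values below are always in the order of replicates 6, 7 and 9 for I/R and 1, 3 and 5 for sham.

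The proteasome is the barrel-shaped protease that degrades proteins tagged with ubiquitin. Its core, the 20S particle, is built of stacked rings of alpha subunits (Psma) and beta subunits (Psmb), and the beta rings carry the catalytic sites. A 19S cap of ATPases (Psmc) and non-ATPase subunits (Psmd) binds the ubiquitin chain, removes it, unfolds the substrate and feeds it into the core. Under interferon gamma, cells make the immunosubunits Psmb8, Psmb9 and Psmb10, which take the places of Psmb5, Psmb6 and Psmb7 in new cores and favour peptides that fit MHC class I, and the PA28 cap of Psme1 and Psme2. The transcription factor NRF1 (Nfe2l1) raises constitutive subunit genes together when proteasome activity is short.

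Promoters of 5 members are shown because NRF1 and interferon are the known inputs to the constitutive and the immune genes. Each window is 300 bases from RefSeq on GRCm38.p6, from 250 bases before the start to the end of the first 50 bases after it, read 5′ to 3′ on the strand of the gene. Psmb5 (chr14:54617946-54618245, minus strand) and Psmb6 (chr11:70525107-70525406, plus strand) hold the core of the antioxidant response element, TGACNNNGC, which NRF1 and NRF2 bind. Psmb8 (chr17:34197945-34198244, plus strand) holds a gamma-activated site, TTCNNNGAA, an element of interferon gamma responses. Psmb9 (chr17:34187281-34187580, minus strand) holds a CCAAT box on the other strand, and Psme1 (chr14:55578244-55578543, plus strand) holds the core of the interferon-stimulated response element, GAAANNGAAA, on the other strand. Capitals mark these matches, and no window of the 5 held matches to more than 1 motif. The gamma-activated site reads the same on both strands.
Psmb5: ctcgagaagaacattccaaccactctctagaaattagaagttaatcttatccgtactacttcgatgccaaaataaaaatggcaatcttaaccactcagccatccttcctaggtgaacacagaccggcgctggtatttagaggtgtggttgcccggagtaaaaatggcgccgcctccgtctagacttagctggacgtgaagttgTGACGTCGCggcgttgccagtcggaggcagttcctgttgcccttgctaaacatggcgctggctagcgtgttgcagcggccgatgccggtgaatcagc
Psmb6: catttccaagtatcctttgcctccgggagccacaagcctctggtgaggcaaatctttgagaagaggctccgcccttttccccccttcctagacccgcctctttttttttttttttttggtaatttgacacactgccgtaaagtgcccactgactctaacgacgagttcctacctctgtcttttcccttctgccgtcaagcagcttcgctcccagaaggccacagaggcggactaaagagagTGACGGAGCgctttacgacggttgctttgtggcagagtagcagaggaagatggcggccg
Psmb8: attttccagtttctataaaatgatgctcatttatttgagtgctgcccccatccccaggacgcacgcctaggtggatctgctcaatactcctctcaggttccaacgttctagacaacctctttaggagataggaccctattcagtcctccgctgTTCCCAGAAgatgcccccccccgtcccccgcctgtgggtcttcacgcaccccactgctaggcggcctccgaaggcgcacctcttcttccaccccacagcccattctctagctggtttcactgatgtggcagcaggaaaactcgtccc
Psmb9: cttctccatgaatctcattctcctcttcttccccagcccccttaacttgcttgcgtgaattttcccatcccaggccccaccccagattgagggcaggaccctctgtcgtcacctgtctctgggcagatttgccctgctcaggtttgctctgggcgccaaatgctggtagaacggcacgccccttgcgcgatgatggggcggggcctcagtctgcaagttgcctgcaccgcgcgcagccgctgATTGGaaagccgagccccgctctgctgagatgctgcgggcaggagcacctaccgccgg
Psme1: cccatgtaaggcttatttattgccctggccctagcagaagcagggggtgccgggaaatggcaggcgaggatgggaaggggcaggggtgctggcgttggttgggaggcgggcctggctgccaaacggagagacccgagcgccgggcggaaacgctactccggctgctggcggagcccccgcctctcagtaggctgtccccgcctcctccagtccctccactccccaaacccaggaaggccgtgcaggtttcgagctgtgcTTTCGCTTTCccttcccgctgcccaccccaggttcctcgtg

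A window was found for 42 of the 49 members, and Psma6, Psmc2 and Psme2 had more than a single window. A member was counted once if any of its windows matched, whereas the share over all windows counts each window, so the units differ slightly. Searched on both strands, the antioxidant response element core was present in 6 of these 42 (14.3%; Psmb5, Psmb6, Psmc6, Psmd12, Psmd9 and Psme4), against 12.4% of all 32851 windows of this length. The interferon-stimulated response element core was present in 5 of 42 (11.9%; Psmb3, Psmd4, Psmd9, Psme1 and Psmg4), against 3.44% of all windows. The gamma-activated site was present in 3 of 42 (7.14%; Psmb8, Psmd2 and Psmg1), against 8.3% of all windows, and the CCAAT box in 14 of 42 (33.3%), against 37.4%. A match is a run of letters and not a bound site.

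To ask whether the proteasome genes differed between I/R and sham intestine, each gene was tested with limma on log2(FPKM + 1), with Benjamini-Hochberg adjustment over the 12000 genes, and fold changes below are differences of group means (I/R minus sham) of these log2 values. None of the 49 members passed an adjusted p of 0.05 in either direction, where 0.0167% of all genes passed as higher and 0.0167% as lower. At an unadjusted p of 0.05, 1 of the 49 was higher (2.04%), against 5.56% of all genes, and 0 were lower, against 3.38%. The lowest adjusted p of any member was 0.543.

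The mean of the log2 values was higher in I/R for 44 of 49 members (89.8%), against 62.6% of all genes, and the median fold change of the members was 0.17, against 0.12 over all genes. The genes as a whole were thus shifted upward in I/R on this scale. When each library was rescaled by its median ratio to the average library, the median over all genes was 0.010, and 51.2% of all genes were higher in I/R. Of the 49 members 28 (57.1%) were then higher, with a median of 0.045. Every member but Psmc3ip had a mean of at least 5 FPKM. Among the 6805 genes at that level 59.2% were higher, with a median of 0.090, and after the rescaling 45.8%, with a median of -0.043. For 8 members every I/R value lay above every sham value (16.3%, against 10.6% of all genes and 11.9% of those with a mean of at least 5 FPKM). Without I/R 6 this held for 22 members (against 14.3% of all genes) and without sham 5 for 24 (against 16.5%), but without sham 1 for 10 (against 26.4%) and without I/R 9 for 9 (against 18.5%). The 8 members were Psmb1, Psmb3, Psmc1, Psmd4, Psmd6, Psmd11, Psmg3 and Pomp. After the rescaling only Psmg3 of the 49 did so, against 7.38% of all genes. With quantile normalization, which gives all libraries the same distribution of values, 9 members did so, against 7.72%. No member had every I/R value below every sham value, against 5.89% of all genes. After the rescaling Psmf1 alone did, against 9.35% of all genes, and with quantile normalization 2 members did, against 9.95%.

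**Figure D1:**
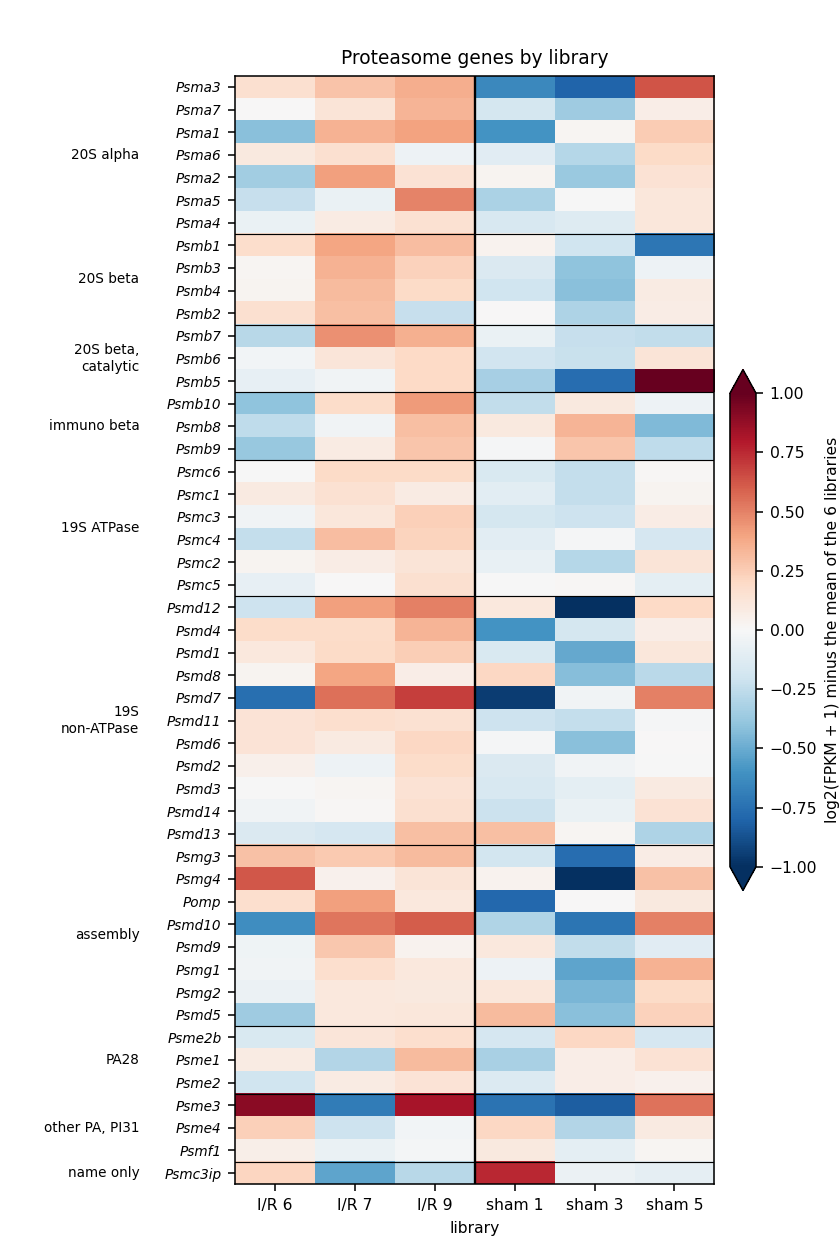
Each of the 49 members (rows, by class) in each of the 6 libraries (columns; 3 I/R left, 3 sham right), coloured by log2(FPKM + 1) minus the mean of the 6 libraries, red above and blue below. Sham 3 was the lowest library for 18 of the 31 constitutive 20S and 19S genes, and I/R 9 the highest for 17.

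The libraries also differed in makeup. Vil1, the villin of the brush border, ran from 646 to 849 FPKM in I/R and from 714 to 1068 FPKM in sham, so epithelium was present in every library. The sum of 15 leukocyte markers was 412, 315 and 196 FPKM in I/R, against 469, 68.0 and 63.3 FPKM in sham, and Ms4a1, the B cell antigen CD20, was listed at 0 in sham 5. The sum of 13 enterocyte markers was 10705, 13613 and 18519 FPKM in I/R, against 12085, 22209 and 16082 FPKM in sham. Fabp6, the ileal bile acid binding protein, had 2903, 2396 and 5.76 FPKM in I/R, against 5201, 956 and 1319 FPKM in sham, and 9 muscle and stroma markers summed to 682, 621 and 37.8 FPKM in I/R, against 504, 207 and 109 FPKM in sham. A list of 6 red cell and plasma cell markers summed to 368, 244 and 473 FPKM in I/R, against 349, 121 and 223 FPKM in sham, with a median fold change of 0.98, and was lowest in sham 3, the library that was also lowest for most constitutive proteasome genes. Sham 3 also had the lowest median log2 value over the 12000 genes tested. This was 2.574, against 2.755 in sham 5, the next lowest, and 3.032 in I/R 6, the highest. Low values in sham 3 were thus not confined to the marker list and the proteasome genes, and their cause was not tested. The I/R 9 library stood apart in region and muscle markers, and sham 1 from sham 3 and sham 5 in leukocyte markers. Without I/R 9 the medians given below were 0.21 for constitutive 20S genes, 0.14 for 19S genes and -0.07 for immunoproteasome genes, and without sham 1 they were 0.19, 0.19 and -0.02. The part of tissue makeup in the results was not tested, and in whole tissue fewer cells of a type cannot be told apart from less RNA per cell.

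All 14 constitutive genes of the 20S core were higher on average in I/R (against 62.6% of all genes), with a median fold change of 0.21. The range was 0.05 to 0.59. After the median-ratio rescaling 9 of the 14 were higher (against 51.2% of all genes), with a median of 0.062. With quantile normalization, where the median over all genes was -0.0025, the median of the 14 was 0.18. Their summed level was 1189, 1483 and 1429 FPKM in I/R, against 1108, 1012 and 1276 FPKM in sham, so that I/R 6 lay below sham 5 and the groups overlapped. The 7 constitutive beta genes had a median of 0.36 (0.21 after the rescaling) and the 7 alpha genes a median of 0.14 (-0.0040 after the rescaling).

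Psmb1, a non-catalytic subunit of the beta ring, was the 1 member past an unadjusted p of 0.05, which it no longer passed after the median-ratio rescaling. It had 151, 176 and 166 FPKM in I/R, against 137, 116 and 80.5 FPKM in sham. All I/R libraries lay above all sham libraries, and the sham libraries were the more spread, with sham 5 lowest. The mean was 164 ± 12.5 FPKM in I/R and 111 ± 28.5 FPKM in sham (SD, n = 3 each), a fold change of 0.59 ± 0.23 (SE; limma adjusted p = 0.543).

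The other non-catalytic beta subunits, Psmb2, Psmb3 and Psmb4, were also at their highest in I/R 7. Psmb3, another structural beta subunit, had 124, 156 and 144 FPKM in I/R, against 111, 92.6 and 118 FPKM in sham (fold change 0.40 ± 0.18, limma adjusted p = 0.582). Psmb4 had 145, 178 and 162 FPKM in I/R, against 124, 106 and 151 FPKM in sham (0.36 ± 0.19, limma adjusted p = 0.624). The Psmb3 groups did not overlap, while for Psmb4 the I/R 6 value lay below sham 5. Psmb2, the remaining non-catalytic beta subunit, had 96.1, 106 and 72.9 FPKM in I/R, against 86.0, 69.0 and 90.7 FPKM in sham, with the groups mixed (0.15 ± 0.21, limma adjusted p = 0.805).

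Among the alpha subunits, which form the outer rings and the gate of the barrel, Psma7 had the lowest p. It had 98, 107 and 124 FPKM in I/R, against 86.2, 76.3 and 102 FPKM in sham (0.31 ± 0.18, limma adjusted p = 0.624), so only I/R 6 fell below the highest sham library. Psma3 was the least abundant core gene, with 14.6, 16.1 and 17.0 FPKM in I/R, against 7.96, 7.05 and 20.7 FPKM in sham (0.54 ± 0.39, limma adjusted p = 0.673). Its highest value was in sham 5, above all 3 I/R libraries. Psma3 has 3 near-identical processed pseudogenes, of which Gm13835 is identical over 685 bases, so its counted fragments are uncertain.

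The other alpha genes mixed between the groups. Psma6 had 88.1, 91.9 and 79.1 FPKM in I/R, against 75.6, 67.3 and 93.9 FPKM in sham (0.14 ± 0.18, limma adjusted p = 0.799). Psma4 had 75.7, 84.3 and 88.5 FPKM in I/R, against 70.9, 72.7 and 86.1 FPKM in sham (0.11 ± 0.16, limma adjusted p = 0.814), and was among the steadiest members, with 1.25-fold between its highest and lowest library. For both, sham 5 reached the I/R range. Psma1, Psma2 and Psma5 had fold changes of 0.22, 0.14 and 0.14.

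**Figure D2:**
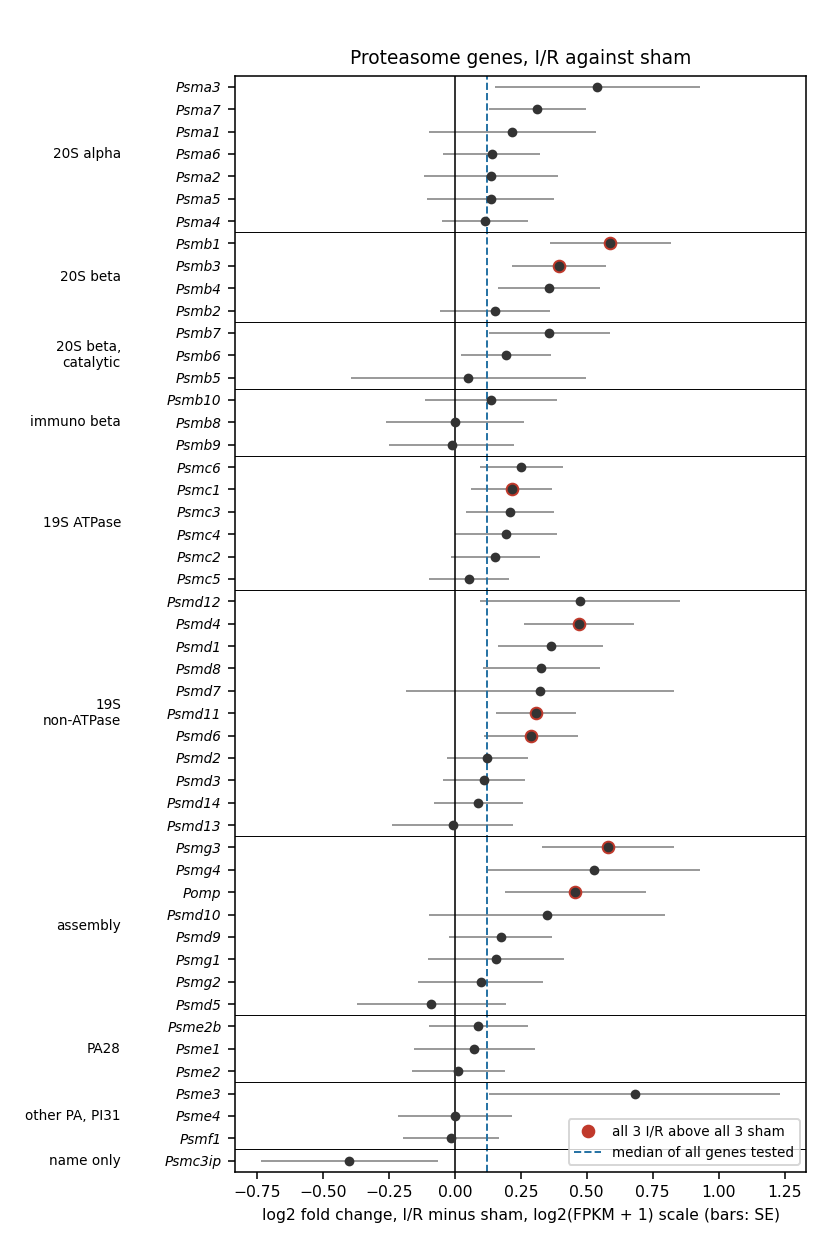
Difference of the mean log2(FPKM + 1) values of each member, I/R less sham (points; bars are 1 SE of the limma fit), by class. Red rings mark the 8 members whose I/R values all lay above the sham values, and the dashed line is the median of 0.12 over the 12000 genes tested.

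The catalytic beta subunits were compared with the immunosubunits that replace them. Psmb5, the chymotrypsin-like site, had 28.1, 29.1 and 34.3 FPKM in I/R, against 23.5, 17.2 and 61.4 FPKM in sham. The 3 I/R values lay close together, and the sham values held both the lowest and the highest of the 6, a 3.57-fold span. The fold change was 0.05 ± 0.45 (limma adjusted p = 0.978). A processed pseudogene, Gm3375, matches Psmb5 at 98.9% over 796 bases and was not in the table.

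Psmb6, the caspase-like site, had 94.8, 105 and 111 FPKM in I/R, against 84.4, 82.3 and 105 FPKM in sham (0.19 ± 0.17, limma adjusted p = 0.709). Psmb7, the trypsin-like site, had 62.7, 105 and 97.8 FPKM in I/R, against 72.8, 64.8 and 64.1 FPKM in sham (0.36 ± 0.23, limma adjusted p = 0.650). For Psmb7 I/R 6 was the lowest of all 6 libraries, while I/R 7 and I/R 9 were the highest. Psmb6 was nearly level across the libraries, at 1.35-fold between highest and lowest.

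The immunoproteasome genes were already abundant in sham intestine and did not differ beyond the spread of the libraries. Psmb8 had 98.7, 115 and 145 FPKM in I/R, against 127, 149.8 and 86.6 FPKM in sham (0.0018 ± 0.26, limma adjusted p = 1.00). Psmb9 had 49.2, 67.9 and 77.9 FPKM in I/R, against 63.6, 78.1 and 53.7 FPKM in sham (-0.01 ± 0.24, limma adjusted p = 0.990). In both genes the highest library was sham 3, and both groups covered nearly the same range.

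Psmb10 had 105, 158 and 187 FPKM in I/R, against 117, 149 and 134 FPKM in sham, a fold change of 0.14 ± 0.25 (limma adjusted p = 0.862). The I/R libraries held both its lowest and its highest value. For all 3 immunosubunits I/R 6 was the lowest and I/R 9 the highest of the I/R libraries, as for the enterocyte marker sum, whereas the leukocyte marker sum was highest in I/R 6 and lowest in I/R 9. Among the sham libraries the 3 immunosubunits and the enterocyte marker sum were highest in sham 3. Psmb8 and Psmb9 were lowest in sham 5, but Psmb10 and the enterocyte marker sum in sham 1.

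Psme1 and Psme2 encode the PA28 cap, which opens the core without ATP. Psme2 was the most abundant member, with 231, 281 and 291 FPKM in I/R, against 242, 278 and 273 FPKM in sham, and a fold change of 0.01 ± 0.18 (limma adjusted p = 0.984). It shares 99.4% of 794 bases with Psme2b, which had 59.1, 71.9 and 74.0 FPKM in I/R, against 58.4, 76.4 and 58.4 FPKM in sham, so the split of fragments between the pair is uncertain. Psme1 had 217, 167 and 256 FPKM in I/R, against 163, 215 and 226 FPKM in sham (0.07 ± 0.23, limma adjusted p = 0.922). Neither cap gene separated the groups.

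Over the 5 genes Psmb8, Psmb9, Psmb10, Psme1 and Psme2 the median fold change was 0.014, against 0.12 over all genes, and the range was -0.01 to 0.14. After the median-ratio rescaling all 5 were lower in I/R, where 51.2% of all genes were higher, with a median of -0.13. With quantile normalization the median of the 5 was -0.0081. Their summed level was 701, 790 and 957 FPKM in I/R, against 713, 870 and 774 FPKM in sham.

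A ratio of FPKM values within a library is unchanged when the whole library is multiplied by 1 factor. The log2 differences below were taken on log2(FPKM + 1), where this holds only nearly. The ratio of Psmb8 to Psmb5 was 3.51, 3.95 and 4.23 in I/R, against 5.39, 8.71 and 1.41 in sham, so the I/R values were tight and fell inside the sham range (log2 difference -0.05, exact two-sided permutation p = 1.0). The ratio of Psmb9 to Psmb6 was 0.519, 0.648 and 0.703 in I/R, against 0.753, 0.949 and 0.510 in sham (log2 difference -0.21, exact permutation p = 0.5). The ratio of Psmb10 to Psmb7 was 1.67, 1.51 and 1.92 in I/R, against 1.61, 2.30 and 2.09 in sham (log2 difference -0.22, exact permutation p = 0.3). With 3 libraries against 3 the smallest p this test can give is 0.1, and no ratio separated the groups. Every library held more Psmb8 than Psmb5 and more Psmb10 than Psmb7, and less Psmb9 than Psmb6.

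**Figure D3:**
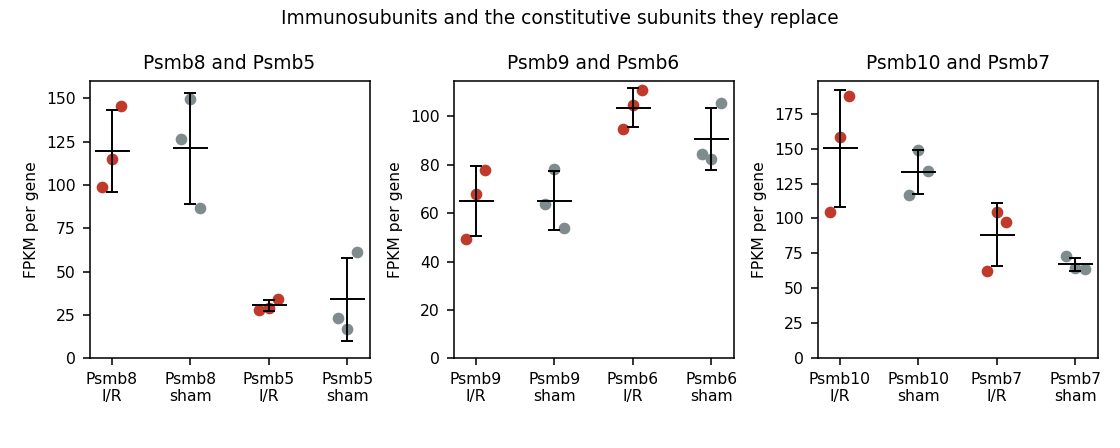
FPKM of each immunosubunit and of the constitutive subunit it replaces, 1 point per library (red, I/R; grey, sham), with the mean (long line) and SD (bars). Psmb8 exceeded Psmb5 in all 6 libraries, and Psmb5 in sham ran from 17.2 to 61.4 FPKM.

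Of the immune members, Psmb8 and Psmb9 lie together on chromosome 17, Psme1 and Psme2 on chromosome 14, and Psmb10 on chromosome 8. In the GENCODE M21 annotation of GRCm38, Psmb9 (chr17:34181987-34187764, minus strand) and Tap1 (chr17:34187553-34197225, plus strand) lie head to head with overlapping 5′ ends. Tap1 is the peptide transporter of MHC class I loading, and Psmb8 (chr17:34197721-34201454, plus strand) follows it. Tap1 had 47.8, 54.2 and 55.9 FPKM in I/R, against 51.1, 55.3 and 53.7 FPKM in sham, and like Psmb9 did not separate the groups (-0.02 ± 0.15, limma adjusted p = 0.970). Psme1 (chr14:55578123-55581529, plus strand) and Psme2 (chr14:55587441-55591113, minus strand) are neighbours. The RefSeq windows of Psmb8, Psmb9 and Psme1 printed above lie wholly inside these GENCODE spans, so the annotations place the starts of these genes differently.

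The summed level of Psme1 spanned 1.57-fold over the libraries, while its split between transcripts varied far more. The 3 listed transcripts of 556, 681 and 711 bases made 83.7%, 12.1% and 7.44% of its summed FPKM in I/R, against 10.2%, 5.24% and 88.5% in sham. A transcript of 1112 bases held the rest, so that I/R 6 and sham 5 stood apart from the other 4 libraries, 1 from each group. Psmc4 showed a like split: its transcript of 1244 bases had 0.296, 2.14 and 38.8 FPKM in I/R, against 17.7, 0.189 and 1.56 FPKM in sham, while a transcript of 1440 bases held the rest. Both splits crossed the groups. Of the 49 members 29 had 1 listed transcript and 20 had more.

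**Figure D4:**
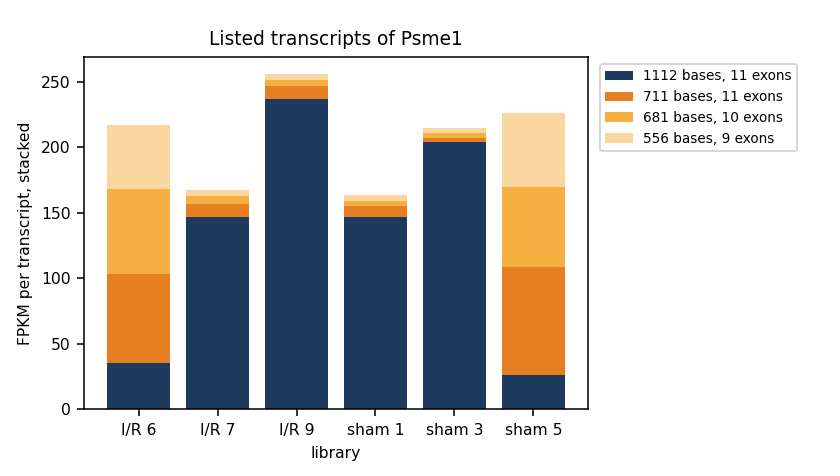
FPKM of each listed transcript of Psme1, stacked, in the 3 I/R and 3 sham libraries, coloured by transcript length. The short transcripts made 83.7% of the sum in I/R 6 and 88.5% in sham 5, and at most 12.1% in the other 4 libraries.

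In the 19S cap 16 of 17 genes averaged higher in I/R (against 62.6% of all genes), with a median fold change of 0.22. After the median-ratio rescaling 12 of 17 did (against 51.2% of all genes), with a median of 0.072. With quantile normalization the median was 0.18, against -0.0025 over all genes. The summed level was 850.4, 965 and 1009 FPKM in I/R, against 795, 747 and 875 FPKM in sham, and only I/R 6 fell inside the sham range. The 6 ATPases, which unfold the substrate, had a median of 0.20 (0.058 after the rescaling), and the 11 non-ATPase subunits a median of 0.31 (0.17 after the rescaling).

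The ATPases were steady between libraries. Psmc6 had 48.4, 55.4 and 55.6 FPKM in I/R, against 43.5, 41 and 48.8 FPKM in sham (0.25 ± 0.16, limma adjusted p = 0.642). Psmc1 had 78.3, 81.5 and 77.5 FPKM in I/R, against 67.9, 61.9 and 74.8 FPKM in sham (0.22 ± 0.15, limma adjusted p = 0.671), and its groups did not overlap. Psmc3 had 78.7, 87.3 and 95.4 FPKM in I/R, against 71.5, 69.7 and 85.0 FPKM in sham (0.21 ± 0.17, limma adjusted p = 0.690). For Psmc6 and Psmc3 the I/R 6 library fell below sham 5. Psmc4 had 48.4, 71.0 and 66.8 FPKM in I/R, against 53.0, 56.8 and 50.7 FPKM in sham (0.19 ± 0.19, limma adjusted p = 0.741). Psmc2 and Psmc5 had fold changes of 0.15 and 0.05.

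Psmd4, the subunit whose ubiquitin-interacting motifs bind the ubiquitin chain, had the lowest p of the cap. It had 66.2, 66.1 and 73.7 FPKM in I/R, against 38.2, 51.4 and 60.8 FPKM in sham, with no overlap and with sham 1 lowest. The mean was 68.6 ± 4.37 FPKM in I/R and 50.1 ± 11.4 FPKM in sham (SD, n = 3 each), a fold change of 0.47 ± 0.21 (limma adjusted p = 0.569).

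Psmd11, a scaffold subunit of the lid, was nearly constant among the I/R libraries. It had 34.8, 35.4 and 35.2 FPKM in I/R, against 27.1, 26.5 and 31.2 FPKM in sham, and the groups did not overlap. Its mean was 35.1 ± 0.311 FPKM in I/R and 28.3 ± 2.55 FPKM in sham (SD, n = 3 each), a fold change of 0.31 ± 0.15 (limma adjusted p = 0.598). A processed pseudogene, Gm14048, matches Psmd11 at 97.95% over 1269 bases and was not in the table.

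Psmd1, the large scaffold of the base, had 49.2, 52.4 and 54.5 FPKM in I/R, against 41.1, 31.8 and 49.5 FPKM in sham, and only I/R 6 fell just below sham 5 (0.36 ± 0.20, limma adjusted p = 0.624). Psmd6, a further lid subunit, had 47.9, 46.4 and 50.5 FPKM in I/R, against 43.1, 32.3 and 43.6 FPKM in sham, with no overlap (0.29 ± 0.18, limma adjusted p = 0.637). In both genes sham 3 was the lowest library, as it was for the median over all genes tested.

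Chosen after their values were seen, Psmd7 and Psmd12 were the most variable cap genes. Psmd7, the partner of the deubiquitinase Psmd14, had 21.1, 53.6 and 59.1 FPKM in I/R, against 18.3, 35.4 and 51.8 FPKM in sham, with 1 low library in each group (0.32 ± 0.51, limma adjusted p = 0.833). Psmd12, a lid scaffold, had 25.0, 39.0 and 41.7 FPKM in I/R, against 31.3, 13.9 and 33.6 FPKM in sham (0.47 ± 0.38, limma adjusted p = 0.688). Psmd13 was the 1 cap gene with a lower mean in I/R, at -0.01, and Psmd2, Psmd3, Psmd8 and Psmd14 lay between 0.09 and 0.33.

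**Figure D5:**
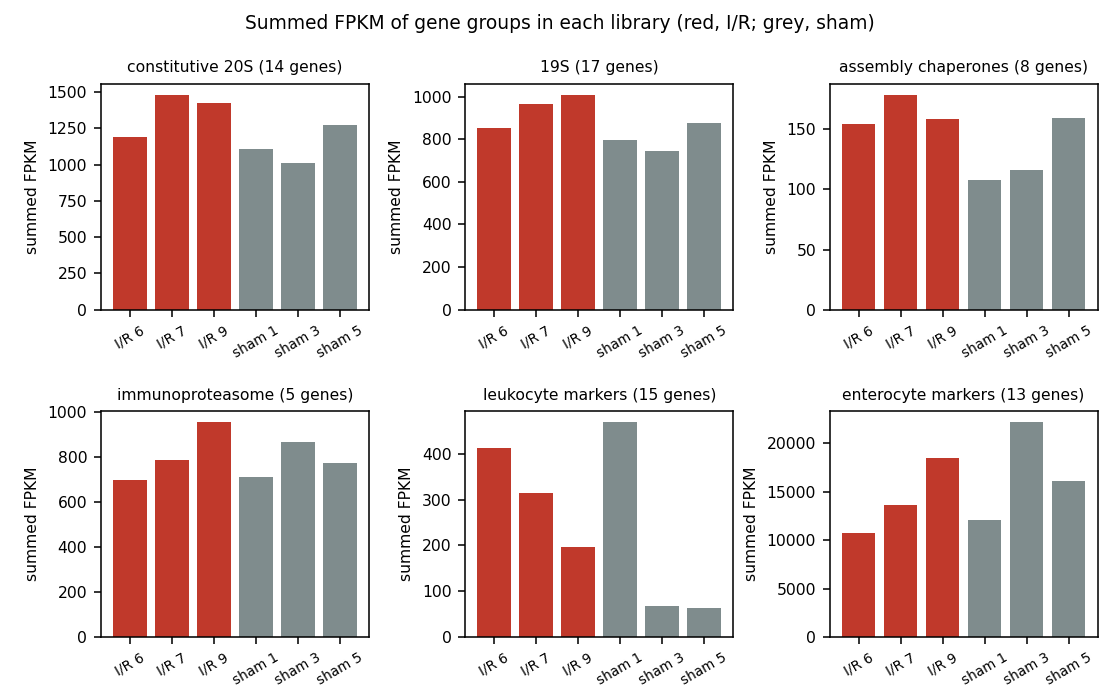
Summed FPKM of gene groups in each library (red, I/R; grey, sham), with each panel starting at 0. The constitutive 20S and 19S sums were lowest in sham 3 (1012 and 747 FPKM), while the leukocyte marker sum was 68.0 and 63.3 FPKM in sham 3 and sham 5 and 469 FPKM in sham 1.

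The assembly chaperones hold partly built particles and leave the finished proteasome. Of 8 genes 7 averaged higher in I/R (against 62.6% of all genes), with a median fold change of 0.26 (0.13 after the median-ratio rescaling). Pomp, which brings beta subunits onto the alpha ring at the ER membrane, had 86.9, 103 and 83.4 FPKM in I/R, against 44.5, 77.3 and 82.7 FPKM in sham. The groups did not overlap, but I/R 9 and sham 5 were nearly equal (0.46 ± 0.27, limma adjusted p = 0.624).

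Psmg3 was the member that separated the groups with and without the rescaling. A chaperone of alpha ring assembly, it had 12.8, 12.5 and 13.1 FPKM in I/R, against 8.97, 5.65 and 10.9 FPKM in sham. The I/R values differed by less than 1 FPKM, and the sham values were all lower and more spread. The mean was 12.8 ± 0.279 FPKM in I/R and 8.50 ± 2.65 FPKM in sham (SD, n = 3 each), a fold change of 0.58 ± 0.25 (limma adjusted p = 0.562). Its transcripts share 238 identical bases with Gm26938, an overlapping gene that was not in the table.

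Psmg4, the partner of Psmg3, had 18.8, 12.2 and 13.1 FPKM in I/R, against 12.2, 4.90 and 14.8 FPKM in sham, and overlapped (0.53 ± 0.40, limma adjusted p = 0.681). Psmd9, a chaperone of the ATPase ring, had 8.78, 11.2 and 9.38 FPKM in I/R, against 9.85, 7.51 and 8.32 FPKM in sham (0.17 ± 0.20, limma adjusted p = 0.769). Sham 3, which had the lowest median over all genes tested, was the lowest library for 7 of the 8 chaperone genes. Psmd5, a further chaperone of the ATPase ring, had a fold change of -0.09, and Psmd10, Psmg1 and Psmg2 lay between 0.10 and 0.35.

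Of the other activators, Psme3, the nuclear cap PA28 gamma, was the member with the largest fold change at 0.68 ± 0.55 and also among the least even. It had 36, 11.3 and 34.1 FPKM in I/R, against 10.9, 10.2 and 28 FPKM in sham, so I/R 7 sat with the low sham libraries and sham 5 with the high I/R libraries (limma adjusted p = 0.690). Psme4, the cap PA200, had 18.8, 13.5 and 15.5 FPKM in I/R, against 18.3, 12.7 and 16.9 FPKM in sham, and its means were equal to 3 digits (0.0011 ± 0.22, limma adjusted p = 1.00). Psmf1, the inhibitor PI31, was the steadiest member, with 6.50, 5.90 and 6.12 FPKM in I/R, against 6.73, 5.73 and 6.30 FPKM in sham, a 1.17-fold span (-0.01 ± 0.18, limma adjusted p = 0.984). Psmc3ip, the recombination cofactor, had 1.00, 0.197 and 0.423 FPKM in I/R, against 1.91, 0.658 and 0.623 FPKM in sham (-0.40 ± 0.33, limma adjusted p = 0.696).

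Genes outside the rule that act with the proteasome were taken as lists of named genes. All 12 genes of the NRF1 axis and the regulators of proteasome genes were measured. On average 6 of them were higher in I/R and 6 lower, where 62.6% of all genes were higher. After the median-ratio rescaling 4 were higher, against 51.2% of all genes. The median was -0.01, and 0 passed the adjusted threshold. Ngly1, the enzyme that strips sugars from NRF1 so that it can act, had 6.90, 10.6 and 10.8 FPKM in I/R, against 14.7, 12.7 and 14.2 FPKM in sham, with every I/R value lower (-0.53 ± 0.22, limma adjusted p = 0.553). It was the only 1 of the 12 to do so, against 5.89% of all genes, and 0 had every I/R value higher, against 10.6%. At an unadjusted p of 0.05, 1 of the 12 was lower, against 3.38% of all genes, and 0 were higher, against 5.56%. Nfe2l1 itself had 11.5, 24.5 and 16.2 FPKM in I/R, against 29.3, 20.6 and 17.8 FPKM in sham, and overlapped (-0.39 ± 0.32, limma adjusted p = 0.691). Nfe2l2, which encodes NRF2, had 46.3, 19.5 and 57.8 FPKM in I/R, against 52.8, 61.5 and 71.4 FPKM in sham (-0.70 ± 0.40, limma adjusted p = 0.624), and Nfyc, a subunit of the CCAAT-binding factor, had a fold change of -0.47.

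All 17 measured genes of 20 proteasome-associated proteins averaged higher in I/R, against 62.6% of all genes, with a median of 0.24. After the median-ratio rescaling 12 of 17 did, against 51.2%. Of the 17 genes 0 passed the adjusted threshold and 2 were higher at an unadjusted p of 0.05 (11.8%, against 5.56% of all genes). Txnl1, a thioredoxin-like protein bound to the cap, had 30.9, 36.1 and 35.9 FPKM in I/R, against 22.3, 20.6 and 22.7 FPKM in sham, with no overlap (0.62 ± 0.16, limma adjusted p = 0.465). Zfand2a, a stress-induced zinc finger protein that binds the cap, had 8.72, 7.94 and 11.8 FPKM in I/R, against 6.60, 5.85 and 6.06 FPKM in sham (0.53 ± 0.21, limma adjusted p = 0.543). Ecpas, which links the core to the cap, had a fold change of 0.38 and Usp14, a deubiquitinase of the cap, 0.59, and 4 of the 17 genes had every I/R value above every sham value (23.5%, against 10.6% of all genes).

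The 15 genes of MHC class I presentation and its regulators were all measured. In mean 6 were higher in I/R and 9 lower, where 62.6% of all genes were higher. After the median-ratio rescaling 4 were higher, against 51.2% of all genes. The median was -0.01, and 0 passed the adjusted threshold. Irf1, an interferon-induced activator of the immunosubunit genes, had 88.1, 38.9 and 42.1 FPKM in I/R, against 127, 88.1 and 95 FPKM in sham (-0.95 ± 0.34, limma adjusted p = 0.533). Irf8, an interferon-regulated factor of myeloid and B cells, had 43.8, 49.7 and 26.5 FPKM in I/R, against 76.0, 83.7 and 51.4 FPKM in sham (-0.82 ± 0.30, limma adjusted p = 0.538). Both were lower in every I/R library than in every sham library, although I/R 6 and sham 3 were nearly equal for Irf1. They were the only 2 of the 15 to do so, against 5.89% of all genes, and 0 had every I/R value higher, against 10.6%. At an unadjusted p of 0.05, 2 of the 15 were lower, against 3.38% of all genes, and 0 were higher, against 5.56%. Calr, an ER chaperone of class I loading, had a fold change of 0.38 (limma adjusted p = 0.624).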

How the data were processed

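The deposited table gives FPKM per transcript and library. The submitters' processing notes name cutadapt, HISAT2 2.0.4, StringTie and mm10, with the annotation not given in the sources used here. Total RNA was fragmented and made into strand-marked libraries. The table holds 19763 transcripts, each with a mean of at least 0.5 FPKM in at least 1 group, and its sums were 315726 to 330814 FPKM per library. The low values did not fall on whole-read steps, so depth is unknown and no counting interval is given. Between 5.05% and 7.78% of values per library were 0, which is reported as listed at 0.

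Transcript identifiers without versions were matched to GENCODE M21 (19702 of 19763) and FPKM was summed per gene, giving 12382 genes, of which 12000 had a mean of at least 0.5 FPKM. Differences were tested with limma 3.58.1 in R 4.3.3 (mean-variance trend) on log2(FPKM + 1), which understates changes of low genes. Ratios were compared by exact two-sided permutation tests (scipy 1.17.1). The script was tested on simulated data. Near-identical copies were searched with blastn 2.17.0, at 95% identity or more over at least 150 bases. These were found for 12 members, namely Psma3, Psma4, Psma5, Psmb3, Psmb5, Psmc1, Psmd1, Psmd2, Psmd11, Psme2, Psme2b and Psmg3. For 3 of them, Psma5, Psme2 and Psme2b, such a gene was in the table.

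Named genes were the immunosubunits, PA28 genes, catalytic subunits and Pomp, and in each other class up to 4 by smallest unadjusted p. Of each list outside the rule up to 4 genes were named likewise, except 1 gene that is not reported here. Members and lists were chosen with earlier results of these data known. Alternatives were other pseudocounts, filters, scalings, no trend, the top transcript alone and each library left out.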

Additional observations from a re-analysis of the deposited data

How the results depend on the processing

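No member passed an adjusted p of 0.05 under any of the 14 alternatives, and 25 of the 49 kept their sign under all of them. No paired analysis was possible because the groups share no replicate numbers. With 3 libraries a group, unknown depth and libraries that differ in region, muscle and leukocyte markers, small differences between members could not be resolved. The cause of each shift below was not tested.

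The count higher at an unadjusted p of 0.05, 1 as reported, was 0 with median-ratio scaling (against 3.88% of all genes), quantile normalization (4.33%) or no trend (5.53%). It was 2 with the top transcript alone (against 5.09%). With 1 library left out it was 0 to 5 (0 without I/R 9, against 4.82% of all genes, 0 without sham 3, against 3.36%, 2 without sham 1, against 10.8%, and 5 without sham 5, against 5.05%). The count lower was 1 with quantile normalization, where the share of all genes was not computed. The count of members with every I/R value above every sham value, 8 as reported, was 1 with median-ratio scaling (against 7.38% of all genes). It was 9 with quantile normalization (against 7.72%). With 1 library left out it was 9 to 24, being 22 without I/R 6 (against 14.3% of all genes), 10 without I/R 7 (17.9%), 9 without I/R 9 (18.5%), 10 without sham 1 (26.4%), 9 without sham 3 (12.9%) and 24 without sham 5 (16.5%). The count below was 1 with median-ratio scaling (against 9.35% of all genes) and 2 with quantile normalization (9.95%). With 1 library left out it was 0 to 2, being 1 without I/R 6 (against 9.96% of all genes) and 2 without sham 3 (10.5%).

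The median fold change of constitutive 20S genes was 0.062 with median-ratio scaling and 0.19 to 0.37 with 1 library left out (0.37 without I/R 6, 0.35 without sham 5), and that of 19S genes was 0.072 and 0.14 to 0.29. The immunoproteasome median was -0.13 with median-ratio scaling and -0.067 to 0.13 with 1 library left out. With quantile normalization these medians were 0.18 for 20S, 0.18 for 19S and -0.0081 for immunoproteasome genes, against -0.0025 over all genes. With median-ratio scaling the median over all genes was 0.010. The log2 ratio of Psmb8 to Psmb5 ran from -0.79 without sham 5 to 0.49 without sham 3.

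Fold changes that turned negative with median-ratio scaling were Psma2 -0.0063, Psma4 -0.030, Psma5 -0.0071, Psma6 -0.0040, Psmb10 -0.0063, Psmb5 -0.089, Psmb8 -0.14, Psmc5 -0.089, Psmd14 -0.053, Psmd2 -0.019, Psmd3 -0.030, Psme1 -0.070, Psme2 -0.13, Psme2b -0.055, Psme4 -0.13 and Psmg2 -0.025. With quantile normalization these were Psmb8 -0.0081, Psme1 -0.0070, Psme2 -0.11, Psme4 -0.065 and Psmg2 -0.036, and with the top transcript alone Psmc4 -0.024 and Psme4 -0.010. Leaving out 1 library gave Psma1 -0.028 to 0.48, Psma2 -0.033 to 0.35, Psma5 -0.078 to 0.28, Psmb10 -0.041 to 0.37, Psmb5 -0.32 to 0.57, Psmb8 -0.22 to 0.17, Psmb9 -0.15 to 0.17, Psmc5 -0.011 to 0.11, Psmd13 -0.16 to 0.14, Psmd5 -0.32 to 0.065, Psmd7 -0.072 to 0.78, Psme1 -0.068 to 0.24, Psme2 -0.049 to 0.12, Psme4 -0.15 to 0.11, Psmf1 -0.067 to 0.032, Psmg1 -0.069 to 0.37 and Psmg2 -0.10 to 0.22.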
